A study of Mus musculus with 23 samples.

Results

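The 10 genes described here are cardiac muscle genes measured in mouse lung: Myh6, Myl7, Myl4, Nppa, Tnnt2, Tnni3, Actc1, Actn2, Sln and Ryr2. They were taken by symbol from a table of 35322 genes, each was listed once, and all 10 were among the 16795 genes with enough reads to be tested. RNA-Seq had been run on lung of 13-week-old female Balb/c mice, in 23 libraries. The 7 Sham libraries came from offspring of dams given saline intranasally before mating, in gestation and until weaning, and the 7 PM libraries from offspring of dams given fine particulate matter (PM2.5) in the same way. Both of these groups then received a nebulised saline vehicle. The 5 Sham-OVA and 4 PM-OVA libraries came from offspring of saline and of PM2.5 dams that were sensitised to ovalbumin (OVA) with an alum adjuvant and then breathed OVA aerosol, a model of allergic airway disease. The offspring themselves were never given PM2.5, and all lungs were collected after a methacholine test of lung function.

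Cardiac muscle contracts when calcium released from the sarcoplasmic reticulum through the ryanodine receptor Ryr2 lets myosin thick filaments pull on actin thin filaments. Myh6 is the alpha heavy chain of cardiac myosin, Myl7 and Myl4 are its atrial light chains, Actc1 is cardiac actin, Tnnt2 and Tnni3 are cardiac troponin subunits on the thin filament, and Actn2 holds thin filaments at the Z disc. Sln restrains the calcium pump of the reticulum, mainly in atrial muscle, and Nppa encodes the atrial natriuretic peptide, a hormone that lowers blood volume. In mice, a sleeve of cardiac muscle with atrial character continues from the left atrium along the pulmonary veins into the lung, so these genes can be measured in lung RNA. Whether the reads came from that sleeve, from heart tissue taken with the lobe or from other cells was not tested, and in bulk RNA fewer cells of a type and less RNA per cell cannot be told apart.

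Upstream sequence is shown for 3 members with different outcomes: Myh6, which fell most after OVA challenge, Actc1, which fell less, and Myl7, a light chain whose OVA and saline groups overlapped. Each sequence runs from 250 bases before to 50 bases after the RefSeq start of the gene on GRCm38.p6, in the direction of the gene, all 3 being on the minus strand. Capitals mark matches, on either strand, to TATAAA, a core promoter element, CATTCC (the letters of the MCAT element that TEAD factors bind), AGATAA (letters bound by GATA factors), the CArG box bound by Srf, and the MEF2 element.
Myh6, chr14:54966558-54966857: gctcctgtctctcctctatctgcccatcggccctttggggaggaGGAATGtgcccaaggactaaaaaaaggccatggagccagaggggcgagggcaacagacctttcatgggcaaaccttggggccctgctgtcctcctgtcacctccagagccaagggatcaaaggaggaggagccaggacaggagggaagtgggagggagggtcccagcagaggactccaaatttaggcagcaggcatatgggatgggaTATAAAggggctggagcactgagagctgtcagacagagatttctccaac
Actc1, chr2:114052826-114053125: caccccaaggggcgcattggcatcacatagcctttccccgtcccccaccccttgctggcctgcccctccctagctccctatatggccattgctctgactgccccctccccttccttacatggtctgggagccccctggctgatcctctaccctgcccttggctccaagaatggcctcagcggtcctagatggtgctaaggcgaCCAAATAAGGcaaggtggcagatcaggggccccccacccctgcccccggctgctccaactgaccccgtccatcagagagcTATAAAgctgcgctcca
Myl7, chr11:5898733-5899032: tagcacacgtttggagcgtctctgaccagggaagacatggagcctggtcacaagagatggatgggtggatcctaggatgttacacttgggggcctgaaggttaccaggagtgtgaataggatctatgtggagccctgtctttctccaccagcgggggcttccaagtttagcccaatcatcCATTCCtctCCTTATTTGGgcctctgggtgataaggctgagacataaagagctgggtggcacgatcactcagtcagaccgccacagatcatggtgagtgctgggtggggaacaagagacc
Of the 9 members with a sequence of this kind, 3 held TATAAA, 3 held CATTCC, 2 held a CArG box, 1 held AGATAA and 0 held a MEF2 element. Among all 32851 promoter windows of the same length, 13.6% held TATAAA, 14.7% CATTCC, 1.63% a CArG box, 11.2% AGATAA and 3.19% a MEF2 element. These matches describe letters in a short window and say nothing about binding.

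On GRCm38 the members lie on 8 chromosomes. Myh6 (ENSMUSG00000040752) spans chr14:54941921-54966927, Myl7 (ENSMUSG00000020469) chr11:5896637-5898782 and Ryr2 (ENSMUSG00000021313) chr13:11553102-12106945, all on the minus strand. Actc1 (ENSMUSG00000068614) spans chr2:114047282-114053548 on the minus strand and Sln (ENSMUSG00000042045) chr9:53850164-53854560 on the plus strand. Reads were aligned as 100-base reads without splicing, and the share of such stretches of the longest coding transcript that lay inside 1 exon was 13.6% for Myl7, 16.0% for Tnnt2, 34.9% for Tnni3, 40.6% for Myh6 and 91.9% for Sln. Of the 6014 stretches of Myh6, 687 (11.4%) were also found in Myh7, in Mhrt or in the antisense Gm49130, and 43.9% of those of Nppa were also found in the antisense Gm13054. The other 8 members shared no 100-base stretch with another gene. Tnni3 overlaps Dnaaf3 on the same strand, and Myl4, Actc1 and Ryr2 also overlap other annotated genes, so reads in the shared parts could count for either gene.

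The saline libraries held 13089691 to 17393579 reads on genes and the OVA libraries 2298645 to 12355561. Sham-OVA replicate 3 was the shallowest, with 2298645 reads, and it was the highest of its group in 9 of the 10 members. PM-OVA replicates 3 and 4 held 5922469 and 4324326 reads. The log2 difference from the saline mean changed with transcript length by -0.117 to 0.0857 per doubling of length in the saline libraries and by -0.546 to -0.215 in the OVA libraries. Values with this trend removed, based on the longest annotated transcript of any kind, are therefore given for the members below. Neither depth nor this trend overlapped between saline and OVA libraries, so library quality and challenge cannot be told apart in the OVA comparisons. Sham replicate 1 had 0.289 RPM of Xist and 54.0 RPM of the Y-linked Eif2s3y, against the study's description of the mice as female, and leaving it out kept the count of members that fell at 4. The labels number the libraries but name no litter, so the p-values measure the spread between these libraries. Lung was recognisable in every library from 7 lung lineage genes, among them the surfactant gene Sftpc and the club cell gene Scgb1a1, whose summed level was 24617 to 66860 RPM.

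All levels are in RPM, the reads of a gene scaled to a fixed total per library. Without challenge, all members other than Nppa were measured in each of the 14 saline libraries. Per kilobase of annotated exon, the order in Sham was Actc1 at 38.5 ± 9.39 RPM (SD, n = 7), Myl7 at 20.3 ± 7.22, Myl4 at 7.32 ± 2.69, Tnni3 at 7.11 ± 1.89 and Sln at 6.66 ± 2.39. Myh6 followed at 5.19 ± 2.74 RPM per kilobase, then Tnnt2 at 3.67 ± 0.725, Actn2 at 2.34 ± 0.765, Ryr2 at 0.554 ± 0.199 and Nppa at 0.543 ± 0.952. Myl4, Tnni3, Sln and Myh6 lay within the spread of each other, as did Ryr2 and Nppa. Set against the longest coding transcript instead of all annotated exon, the order was Actc1 at 42.3, Myl4 at 36.0, Tnnt2 at 23.7, Myl7 at 20.3 and Tnni3 at 16.1 RPM per kilobase, so the order of the upper places depends on the gene model. Neither order is corrected for reads that cross exon joins. The share of 100-base stretches inside 1 exon was 13.6% for Myl7, 16.0% for Tnnt2, 56.8% for Actc1 and 91.9% for Sln. The order between members, Actc1 at the top included, is therefore not settled. Without any correction for length, Myh6 was 2nd of the 10 rather than 6th and Ryr2 5th rather than 9th.

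**Figure D1:**
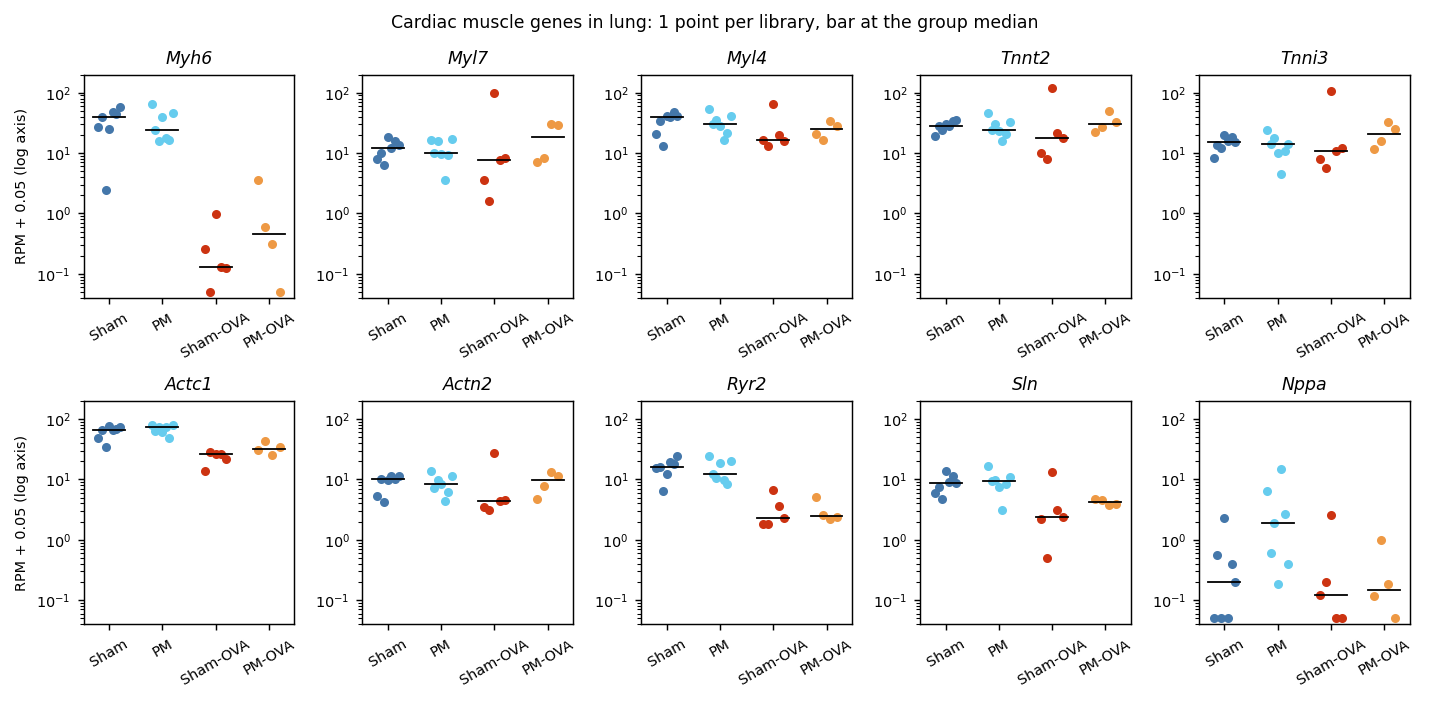
Level of each of the 10 genes in every library, in RPM plus 0.05 on a log axis, by group, with 1 point per library and a bar at the group median. Myh6 is at 0 to 3.56 RPM in the 9 OVA libraries and at 2.43 to 65.3 RPM in the 14 saline libraries, while Sham-OVA replicate 3 is the highest point of its group for every gene other than Actc1.

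OVA challenge was followed by a fall of 4 of the 10 members in offspring of saline dams, Myh6, Ryr2, Sln and Actc1, and of the same 4 in offspring of PM2.5 dams. Among these 4, Sln was not called for the saline dams with quantile normalisation, median-of-ratios scaling, a replicate block, DESeq2 or edgeR. The size of the fall was greatest for Myh6, at -5.27 on the log2 scale for the saline dams and -4.66 for the PM2.5 dams. The other members did not pass the test, and Myl7, Tnnt2, Tnni3 and Actn2 spanned wide ranges within the OVA groups. These counts are not above the background: 47.5% of all genes tested were lower and 20.6% higher in Sham-OVA than in Sham, and 45.2% were lower and 20.1% higher in PM-OVA than in PM. The split moved with the scaling in limma: with quantile normalisation 5812 genes were lower and 5484 higher in Sham-OVA, and 5445 and 5288 in PM-OVA, while median-of-ratios scaling gave 6407 and 4903, and 6003 and 4862. Count models differ in scaling and in the model: in Sham-OVA edgeR called 5669 genes lower and 5584 higher and DESeq2 6392 and 5362, beside 7978 and 3453 in limma, and in PM-OVA edgeR called 5095 and 5120 and DESeq2 5587 and 5323, beside 7589 and 3379. The median log2 fold change over the members was -0.53 for the saline dams and -0.63 for the PM2.5 dams, beside -0.48 and -0.43 over all genes tested. At the threshold used in the study, an adjusted p under 0.000001 and a change above 2-fold, 0 members passed in limma, beside 2.53% of genes lower in Sham-OVA and 0.0238% in PM-OVA. In DESeq2, the tool to which the study applied it, Myh6 passed in Sham-OVA (-7.16, DESeq2 adjusted p = 2.04e-13), beside 15% of genes. Myh6 (-4.60, 2.37e-11) and Ryr2 (-1.95, 1.41e-07) passed in PM-OVA in DESeq2, beside 6.45% of genes.

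Leaving out Sham-OVA replicate 3 changed the count for the saline dams. In the other 4 Sham-OVA libraries 9 of the 10 members were lower than in Sham, all but Nppa, beside a background of 47.2%. With PM-OVA replicates 3 and 4 left out, 3 members were lower than in PM, Myh6, Ryr2 and Actc1, beside 31.3% of all genes. With the trend with transcript length removed, 4 members were lower in Sham-OVA and 5 in PM-OVA, beside backgrounds of 47.6% and 46.2%. Count models on the recovered reads called some members higher: edgeR called Tnni3 in both comparisons, with 33.2% of genes higher in Sham-OVA and 30.5% in PM-OVA, and DESeq2 called Myl7 and Tnni3 in PM-OVA, with 31.7% of genes higher.

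Myh6, the heavy chain that sets the fast contraction of the adult mouse heart, was nearly absent after challenge. Its level ran from 2.43 to 59.0 RPM over the 7 Sham libraries (median 38.9) and from 15.8 to 65.3 RPM over the 7 PM libraries (median 23.6). The 5 Sham-OVA libraries had 0.208, 0, 0.932, 0.0797 and 0.0730 RPM, which are 3, 0, 3, 1 and 1 reads. The 4 PM-OVA libraries had 3.56, 0.541, 0.266 and 0 RPM, or 53, 7, 2 and 0 reads. Every OVA library lay below every saline library of the same dams, as did 35% of all genes in the first comparison and 28.6% in the second. A count of 0 in Sham-OVA replicate 2 allows a level of up to 0.226 RPM, and in PM-OVA replicate 4 of up to 0.545 RPM. The log2 fold change was -5.27 ± 0.598 (SE) in Sham-OVA against Sham, with a limma adjusted p of 3.31e-06, and -4.66 ± 0.543 in PM-OVA against PM, with an adjusted p of 4.63e-05. Removing the length trend gave -4.79 and -4.17.

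Pooled over the libraries of a group and scaled by their depth, Myh6 reads were 254 times fewer in Sham-OVA than in Sham, with a 95% interval from 129 to 588 for counting error alone, resting on 8 against 4308 reads. In PM-OVA they were 20.5 times fewer than in PM (15.9 to 26.7), on 62 against 3711 reads, and PM-OVA replicate 1 gave 53 of the 62. Over 8 type 2 response genes, Clca1 among them, PM-OVA replicate 1 also had the lowest sum of the OVA libraries (9984 RPM). The part of this in its Myh6 level was not tested. The lowest saline library was Sham replicate 3, whose 2.43 RPM rested on 42 reads and stood apart from the 25.2 to 59.0 RPM of the other 6 Sham libraries. That library was also the lowest of its group for Myl7, Myl4, Actc1, Actn2, Ryr2 and Sln, and it had the highest sums of the group for mesothelium genes (949 RPM) and lung lineage genes (55132 RPM). The part of these in its low values was not tested.

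The atrial light chains behaved differently from the heavy chain. Myl7 lay between 6.25 and 18.2 RPM in Sham (median 12.3) and between 3.52 and 16.9 RPM in PM (median 10.1). After challenge it was 3.54, 1.58, 98.8, 7.65 and 8.25 RPM in Sham-OVA and 7.12, 8.11, 30.3 and 29.4 RPM in PM-OVA. The OVA libraries overlapped the saline ones in both comparisons, with replicate 3 of Sham-OVA, and replicates 3 and 4 of PM-OVA, above all saline libraries of the same dams. Against Sham, Myl7 had a log2 fold change of -0.39 ± 0.684 (limma adjusted p = 0.630), and against PM of 0.50 ± 0.478 (0.369). With the length trend removed these were -1.19 (0.115) and -0.30 (0.554). Without Sham-OVA replicate 3 it was -1.25 (adjusted p = 0.00417).

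Myl4 lay between 13.0 and 47.6 RPM in Sham (median 40.1) and between 16.2 and 53.4 RPM in PM (median 29.7). The 5 Sham-OVA libraries had 16.5, 12.9, 65.9, 20.0 and 15.7 RPM of it, so that 3 libraries lay in the lower part of the Sham range, 1 just below it and 1 above it. In PM-OVA it was 20.8, 16.4, 33.9 and 28.5 RPM, within the PM range. Myl4 had a log2 fold change of -0.54 ± 0.390 (limma adjusted p = 0.230) in Sham-OVA, -0.94 (0.00582) without replicate 3, and -0.33 ± 0.300 (0.353) in PM-OVA.

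The share of Myh6 among the reads of the 2 cardiac myosin heavy chains was computed after the values were seen and is given without a test. Myh7, the slow beta chain that also serves slow skeletal muscle, had 15.0 ± 2.22 RPM in Sham (n = 7), 16.5 ± 3.36 in PM (n = 7), 18.2 ± 12.6 in Sham-OVA (n = 5) and 22.9 ± 13.0 in PM-OVA (n = 4), with a log2 fold change of 0.08 in Sham-OVA (limma adjusted p = 0.827, or -0.25 and 0.210 without Sham-OVA replicate 3) and 0.27 in PM-OVA (0.517). Myh6 made up 13.0% to 83.2% of the reads of both chains in Sham and 52.0% to 81.4% in PM. It made up 0% to 2.29% in Sham-OVA and 0% to 33.3% in PM-OVA, where PM-OVA replicate 1 gave the 33.3% (95% Wilson interval 26.5% to 41.0%, counting error alone) and the other 3 libraries at most 2.73%. Both counts come from the same library, so this share does not depend on its scaling. Set against Myl7 instead, there were 38.9 to 431 Myh6 reads per 100 Myl7 reads in Sham, 99.3 to 503 in PM, 0 to 5.88 in Sham-OVA and 0 to 50 in PM-OVA. The transcript of Myh6 has 6113 bases and that of Myl7 590, so the trend with transcript length also acts on this ratio. Its part in the ratio was not tested.

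**Figure D2:**
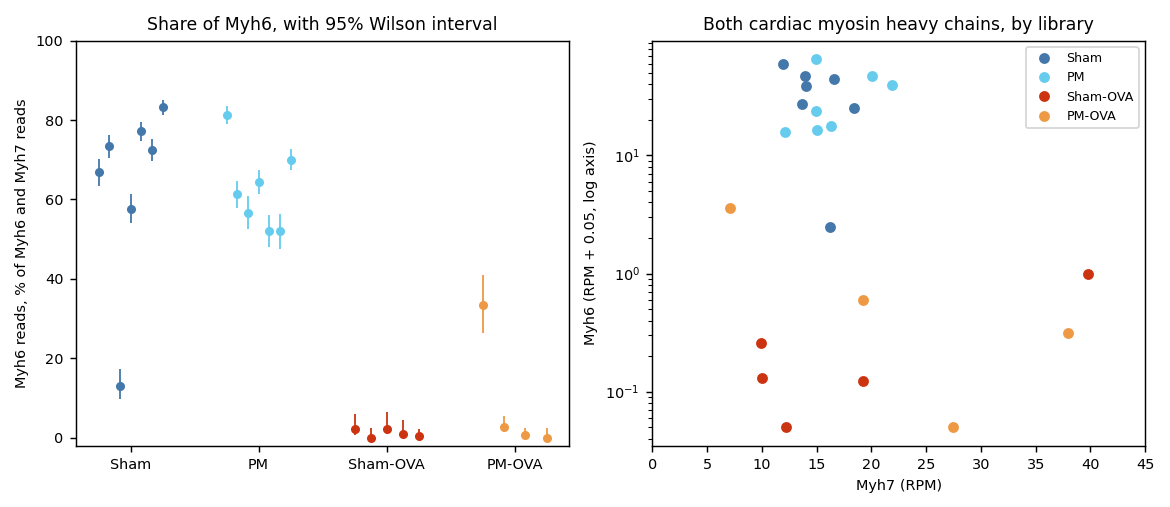
Left, Myh6 reads as a percentage of the reads of Myh6 and Myh7 in each library, with 95% Wilson intervals, by group. Right, Myh6 (RPM plus 0.05, log axis) against Myh7 (RPM) in each library: Myh7 spans 11.9 to 21.9 RPM in the saline libraries and 7.12 to 39.8 RPM in the OVA libraries, which lie at or below 3.56 RPM of Myh6.

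Among the thin filament members, Actc1 fell and the troponins did not pass the test. Actc1, the main actin of the heart, had 34.1 to 75.6 RPM in Sham, median 66.8, and 49.2 to 80.7 in PM, median 72.6. In Sham-OVA it had 13.6, 28.3, 26.1, 26.5 and 21.5 RPM and in PM-OVA 30.5, 43.6, 25.8 and 33.8 RPM. All OVA libraries lay below all saline libraries in both comparisons, and Actc1 was the 1 member in which Sham-OVA replicate 3 was not the highest of its group. The log2 fold change was -1.40 ± 0.225 (limma adjusted p = 7.61e-05) in Sham-OVA and -1.04 ± 0.173 (0.000328) in PM-OVA, and -1.96 and -1.59 with the length trend removed.

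Tnnt2, which ties the troponin complex to tropomyosin, had 19.2 to 35.5 RPM in Sham, median 28.5, and 15.7 to 46.2 in PM, median 24.2. In Sham-OVA it had 9.87, 7.82, 121, 21.5 and 17.5 RPM and in PM-OVA 22.6, 27.2, 48.9 and 32.5 RPM. Of the Sham-OVA libraries, 3 lay below all Sham libraries and 1 above them. For Tnnt2 this gave a log2 fold change of -0.43 ± 0.490 (limma adjusted p = 0.447) in Sham-OVA, -1.07 (0.000544) without replicate 3, and 0.26 ± 0.275 (0.411) in PM-OVA.

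Tnni3, the inhibitory troponin subunit of the adult heart, had 8.20 to 19.6 RPM in Sham, median 15.2, and 4.52 to 23.7 in PM, median 13.9. In Sham-OVA it had 7.78, 5.57, 107, 10.9 and 12.2 RPM and in PM-OVA 11.8, 15.5, 33.1 and 25.1 RPM. The single library at 107 RPM decided the direction: the log2 fold change was 0.04 ± 0.536 (limma adjusted p = 0.951) with it and -0.67 (0.0160) without it. In PM-OVA against PM it was 0.67 ± 0.386 (0.145), and -0.06 (0.889) with the trend with transcript length removed. Dnaaf3, which overlaps Tnni3, had 4.04 RPM in Sham-OVA replicate 3, the lowest of its group of 4.04 to 8.11.

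Actn2, the Z disc alpha-actinin, had 4.23 to 11.4 RPM in Sham, median 10.1, and 4.34 to 13.6 in PM, median 8.30. In Sham-OVA it had 3.40, 3.08, 27.7, 4.30 and 4.46 RPM, so that 2 libraries lay below the Sham range, 2 at its bottom and replicate 3 above its top. In PM-OVA it had 4.77, 7.81, 13.4 and 11.4 RPM, within the PM range. Actn2 had a log2 fold change of -0.52 ± 0.448 (limma adjusted p = 0.317) in Sham-OVA, -1.06 (0.00116) without replicate 3, and 0.09 ± 0.320 (0.810) in PM-OVA.

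Both members of calcium handling fell. Ryr2 had 6.31 to 24.5 RPM in Sham, median 15.8, and 8.49 to 24.4 in PM, median 12.4. In Sham-OVA it had 1.81, 1.81, 6.52, 3.51 and 2.26 RPM and in PM-OVA 5.04, 2.47, 2.12 and 2.36 RPM. The groups did not overlap for the PM2.5 dams, and for the saline dams they overlapped by Sham-OVA replicate 3 and Sham replicate 3. The log2 fold change was -2.21 ± 0.336 (limma adjusted p = 4.72e-05) in Sham-OVA and -2.11 ± 0.316 (0.000188) in PM-OVA. Ryr2 has the longest transcript of the 10, 16814 bases, and with the trend with transcript length removed its fold changes were -1.37 (0.00141) and -1.32 (0.00200).

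Sln had 4.75 to 13.9 RPM in Sham, median 8.74, and 3.05 to 16.3 in PM, median 9.21. In Sham-OVA it had 2.15, 0.451, 13.0, 3.11 and 2.34 RPM, 4 libraries below all Sham libraries and 1 within them. In PM-OVA it had 4.77, 4.48, 3.72 and 3.81 RPM, a narrow band that PM replicate 5, at 3.05 RPM, lay below. Against the saline groups, the log2 fold change of Sln was -1.45 ± 0.480 (limma adjusted p = 0.0147) in Sham-OVA and -0.94 ± 0.327 (0.0227) in PM-OVA, and -2.06 and -1.54 with the length trend removed. Sln passed the test in 22 of 27 alternatives in the first comparison and in 18 of 26 in the second. In Sham-OVA it was not called with quantile normalisation, median-of-ratios scaling, a replicate block, DESeq2 or edgeR. Under median-of-ratios scaling Sln was at -1.12 (limma adjusted p = 0.0850) and -0.61 (0.107). Its weakest log2 fold change over the alternatives in Sham-OVA was -0.42.

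Nppa was the scarcest member and the most uneven. It was at 0 in 3 of the 7 Sham libraries, with a median of 0.151 and a maximum of 2.28 RPM, and it ran from 0.132 to 15.0 RPM in PM, median 1.82. The 5 Sham-OVA libraries had 0.0695, 0.150, 2.49, 0 and 0 RPM and the 4 PM-OVA libraries 0.0672, 0.927, 0.133 and 0 RPM. Groups overlapped in every comparison, and 256 of the 446 Nppa reads of the PM libraries came from PM replicate 5. Nppa had a log2 fold change of -0.03 ± 0.491 (limma adjusted p = 0.956) in Sham-OVA and -1.74 ± 0.765 (0.0602) in PM-OVA. In PM-OVA it was called lower in 8 of 26 alternatives, among them DESeq2 (-3.47, DESeq2 adjusted p = 0.0137), 1 fit of all 4 groups (-1.74, limma adjusted p = 0.0312) and the length trend removed (-2.49, 0.0121).

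**Figure D3:**
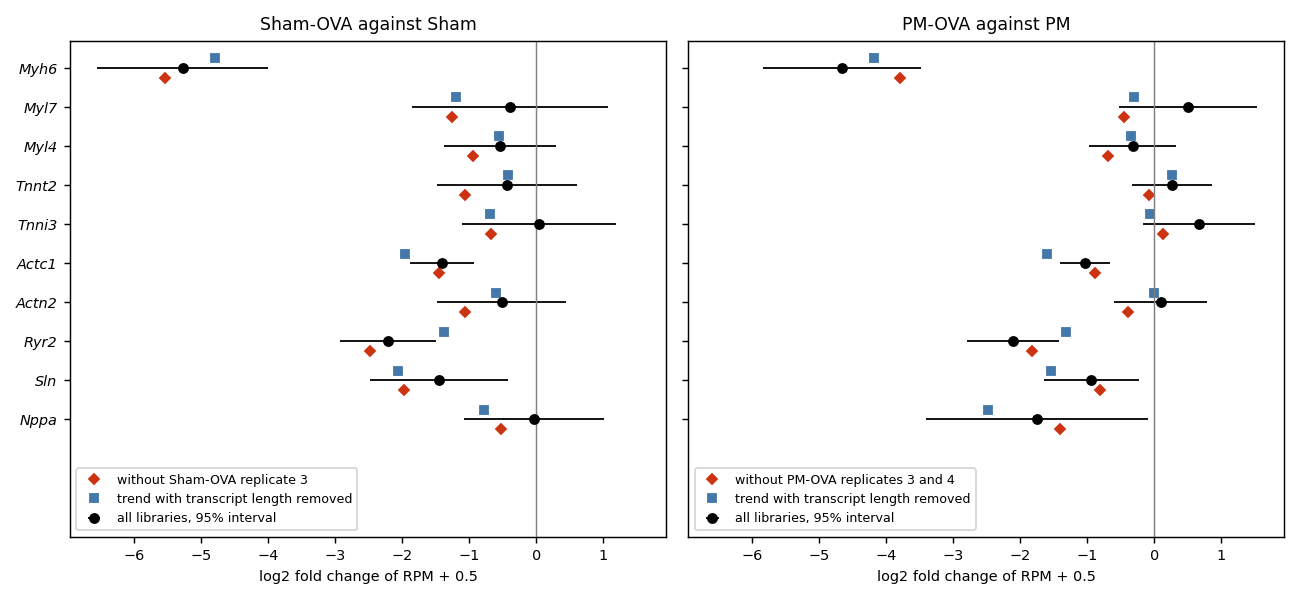
log2 fold change of RPM + 0.5 after OVA challenge in offspring of saline dams (left) and PM2.5 dams (right), over all libraries with 95% intervals (black), and as values alone without Sham-OVA replicate 3 or PM-OVA replicates 3 and 4 (red) and with the trend with transcript length removed (blue). Myh6, Ryr2, Actc1 and Sln have intervals below 0 in both panels, Nppa (adjusted p = 0.0602 in limma) has one in the right panel, and the red diamonds of the left panel are all below 0.

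Sham-OVA replicate 3 thus differed from the other 4 Sham-OVA libraries by an amount that depended on the gene. Its level was 18.8 times their mean for Myl7, 11.8 times for Tnni3, 8.58 times for Tnnt2, 7.25 times for Actn2, 6.48 times for Sln, 4.05 times for Myl4 and 2.78 times for Ryr2. For Actc1 it was 1.16 times, and Myh6 rested on 3 reads. This library was also the highest of its group for the summed muscle energy genes (178 RPM, against 24.7 to 34.4 in the other 4), ventricular genes (74.9 RPM, against 12.5 to 22.3), white adipose genes (54.7 RPM, against 19.8 to 32.0) and skeletal muscle genes (21.7 RPM, against 11.4 to 16.1). Its summed smooth muscle genes were also the highest (2194 RPM), through Tagln and Des, while 6 of the 11 genes, among them Myh11 at 0.519 times and Mylk at 0.365 times, were below the mean of the other 4 libraries. Its type 2 response genes summed to 12957 RPM, the lowest of the 5 and above the saline maximum of 318 RPM. Its ventricular sum held 39.8 RPM of Myh7 and 33.9 RPM of Myl3, while Myl2 and Irx4 of the same list were at 0 in it. Its trend with transcript length, at -0.546 per doubling, was the steepest of the 23 libraries, next to -0.531 in PM-OVA replicate 3. This trend, its low depth and its reads from the ventricular, energy, skeletal muscle and white adipose lists moved with the high members. The part of these features in the high members was not tested.

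**Figure D4:**
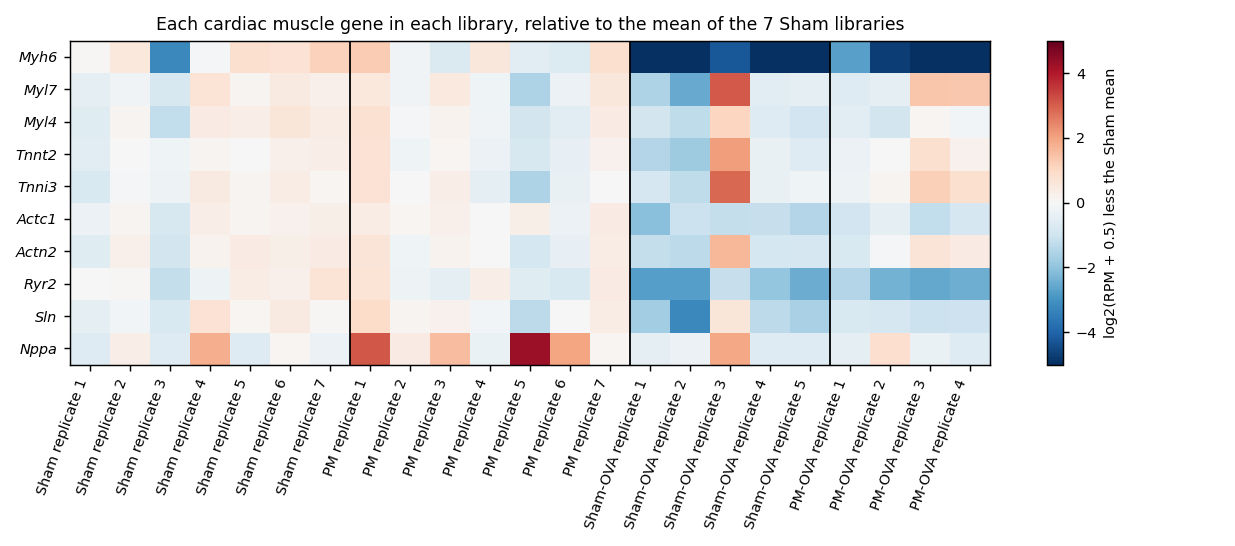
log2(RPM + 0.5) of each gene in each of the 23 libraries, less the mean of the 7 Sham libraries, with red above and blue below that mean and lines between the groups. The Myh6 row is blue in all 9 OVA libraries, and the column of Sham-OVA replicate 3 is red for Myl7, Tnni3, Tnnt2, Actn2 and Myl4 but blue for Myh6, Ryr2 and Actc1.

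Maternal PM2.5 exposure by itself was not followed by a detectable change of any member. In PM against Sham, and likewise in PM-OVA against Sham-OVA, limma called 0 of the 10 members and 0% of all genes at an adjusted p under 0.05. All 10 members overlapped between the groups in both comparisons. At an unadjusted p under 0.05 there were 731 genes and 1 member in PM against Sham, and 313 genes and 0 members in PM-OVA against Sham-OVA. DESeq2 called 0 and 1 genes in these comparisons and edgeR 0 and 0, with 0 members by either. The member was Nppa, whose log2 fold change was 1.59 ± 0.631 (unadjusted p = 0.0226, limma adjusted p = 0.898). In PM-OVA against Sham-OVA the member with the smallest p was Actc1, at 0.53 ± 0.257 (unadjusted p = 0.0655, adjusted p = 1).

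Whether the response to OVA differed with the dam's exposure was tested as an interaction. limma called 0 members and 0% of genes, with 854 genes and 0 members at an unadjusted p under 0.05, while DESeq2 called 2 genes and edgeR 0, with 0 members by either. The interval of the difference for Myh6 ran from -1.19 to 2.41 on the log2 scale, and that for Actc1 from -0.25 to 0.98, which is wide for Myh6. With weights for the quality of each library, 4 members had a higher fold change in PM-OVA, beside 3.88% of all genes: Myl7 by 2.05, Actn2 by 1.56, Tnni3 by 1.54 and Tnnt2 by 1.38. In these 4 members Sham-OVA replicate 3 stood at 7.25 to 18.8 times the mean of the other 4 Sham-OVA libraries. Leaving out 1 library each, without such weights, 0 members were called in any of 23 fits. Sham-OVA and PM-OVA were each read against their own saline group here, so the fold changes of the main comparisons share no control libraries.

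The members varied together in lung without challenge. Over the 14 saline libraries, with each group's mean removed, the 36 pairs among the 9 members other than Nppa had Pearson's r from 0.34 to 0.97, median 0.80, and 27 of them passed a permutation test at an adjusted p under 0.05 over all 45 pairs. Spearman's rho ran from 0.30 to 0.95, with 29 pairs passing. Counts for pairs of other genes are not given, so these counts are not set against a background. Leaving out the 2 libraries farthest from the median of the first gene of each pair, r ran from 0.22 to 0.97, median 0.77.

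Myl4 with Actn2 had the highest r, 0.97 (rho 0.91, r 0.94 without the 2 libraries, adjusted permutation p = 0.00011 for r). Myl7 with Sln followed at 0.95 (rho 0.93, r 0.87 without the 2 libraries, adjusted permutation p = 0.00011), then Myh6 with Ryr2 at 0.94 (rho 0.95, r 0.97 without the 2 libraries, adjusted permutation p = 0.00011). The smallest unadjusted p that 100000 permutations can give is 1e-05. Myh6 with Tnni3 was the loosest of the 36 pairs, at 0.34 (rho 0.30, r 0.60 without the 2 libraries, adjusted permutation p = 0.2294). Nppa stood outside, with r from -0.20 to 0.31 over its 9 pairs, of which 0 passed. Its rho ran from -0.28 to 0.30, and without the 2 libraries r ran from -0.38 to 0.62 with a median of 0.36, so its low values rest in part on those libraries. The values of 1 library share its total and its tissue sample.

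**Figure D5:**
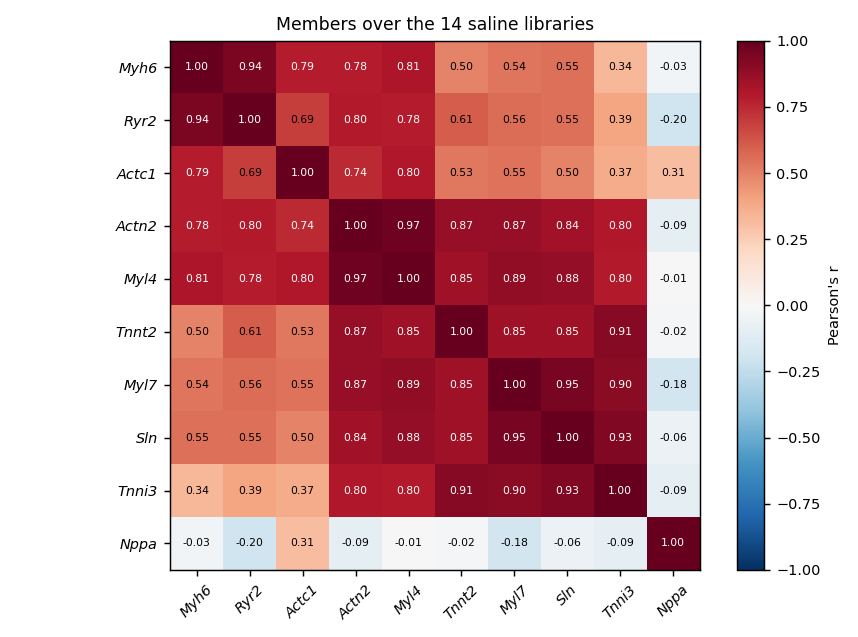
Pearson's r between the 10 members over the 14 saline libraries, from log2(RPM + 0.5) with the mean of each group removed. The genes are ordered by hand: Actn2 and Myl4 are at 0.74 or above with every member other than Nppa, Myh6, Ryr2 and Actc1 are at 0.34 to 0.61 with Tnnt2, Myl7, Sln and Tnni3, and Nppa is near 0.

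The genes most like the members over these libraries were sought among all others tested. By Pearson's r with the mean of the standardised members, the 10 most alike were Csrp3 (0.96), Aldh1b1 (0.96), Pln (0.96), Ckmt2 (0.95), Mybphl (0.95), Pgam2 (0.94), Eef1a2 (0.93), Lmod2 (0.92), Casq2 (0.92) and Tnk2 (0.92), each over 14 libraries. Of these, 7 were in the lists of cardiac genes described next. Pln, the calcium pump inhibitor phospholamban, fell from 19.2 ± 8.59 RPM in Sham to 1.89 in Sham-OVA, with a log2 fold change of -3.02 (limma adjusted p = 1.54e-05). Csrp3, a Z disc protein, fell from 11.4 ± 4.40 to 2.87 RPM, at -2.01 (0.000845). Tnk2, a kinase of many tissues, was at 90.1 ± 11.9 and 122 RPM, at 0.39 (0.0513).

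Other cardiac genes were read from 8 lists by role, 82 genes of which 77 were tested. In Sham-OVA against Sham 51 of the 77 were lower (66.2%, beside 47.5% of all genes) and 7 higher, with a median log2 fold change of -1.15 beside -0.48. In PM-OVA against PM 46 were lower (59.7%, beside 45.2%) and 5 higher, with a median of -0.88 beside -0.43. The lists were chosen with earlier results of these data known, so these shares describe them and nothing particular is claimed from them.

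In the thick filament and M band, 4 of 7 tested genes fell in Sham-OVA and 0 rose, from the giant spring protein Ttn at -3.64 (limma adjusted p = 7.21e-06) to the myosin-binding protein Mybpc3 at 0.19 (0.691), or -0.20 (0.591) without Sham-OVA replicate 3. Ttn was at 44.5 RPM in Sham and 3.49 RPM in Sham-OVA. In the thin filament 6 of 8 fell, from the filament nucleator Lmod2 at -3.29 (1.60e-06) to the calcium-binding troponin Tnnc1 at 0.79 (0.248), which was at 142 RPM in Sham-OVA replicate 3 and had a log2 fold change of 0.0039 (0.990) without that library. Of the Z disc and costamere genes 11 of 12 fell and 1 rose, from the actin-binding Xirp1 at -2.31 (9.92e-05) to the intermediate filament gene Des, also a smooth muscle gene, at 0.79 (0.00118). Mybpc3 and Tnnc1 thus did not pass the test in lists where most genes fell.

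Of the calcium handling genes 9 of 12 fell in Sham-OVA and 0 rose, led by Hrc, a calcium-binding protein of the reticulum, at -3.34 (limma adjusted p = 0.000111), with Cacna2d2 at -0.15 (0.554) at the other end. Of the ion channels and coupling genes 9 of 12 fell and 0 rose, led by the potassium channel of the atrium Kcnj5 at -2.61 (1.11e-06), with Kcnj2 at 0.03 (0.880) at the other end. Of the muscle energy genes 3 of 9 fell and 2 rose, from myoglobin (Mb) at -2.25 (0.00535) to the mitochondrial Cox7a1 at 1.09 (0.00243). The other gene that rose was Actn3, at 0.69 (0.0342), which is also in the skeletal muscle list. Its call ended when any of 6 libraries was left out. The median log2 fold change was -1.50 in the calcium list, -1.45 in the channel list and -0.19 in the energy list. With the trend with transcript length removed, the medians were -0.93, -1.41 and -0.92, and 5 of 9 energy genes fell and 0 rose. The difference between lists was not tested.

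In the natriuretic peptide system 3 of 5 tested genes fell and 2 rose. The clearance receptor Npr3 was at -2.60 (limma adjusted p = 5.93e-05), from 395 to 64.7 RPM, and Corin, the protease that activates the peptide of Nppa, at 3.80 (7.79e-09), from 1.44 to 27.3 RPM. Of the cardiac transcription factors 6 of 12 fell and 2 rose, from Tbx20 at -2.51 (4.02e-06) to Srf at 0.88 (0.0134), or 0.50 (0.00110) without Sham-OVA replicate 3, where it was at 434 RPM. Many of these factors and channels also serve other lung cells.

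By chamber, 5 of 7 tested atrial genes other than the members fell in Sham-OVA and 1 rose, from Dkk3 at -1.79 (limma adjusted p = 0.000112) to Stard10 at 0.99 (0.000576), both also used outside the heart. Of the 5 ventricular genes 3 were tested, Hey2 at -1.86 (4.02e-06), Myl3 and Myh7, and 1 fell. The ventricular transcription factor Irx4 was at 0 in all 23 libraries.

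Genes of other tissues were counted as well, in Sham-OVA against Sham. Skeletal muscle had 1 of 8 tested genes lower and 4 higher, with a summed level of 6.29 to 13.0 RPM in Sham, 6.05 to 14.7 in PM, 11.4 to 21.7 in Sham-OVA and 8.33 to 18.7 in PM-OVA, and its myosin Myh4 was at 0 in every library. The ends of that list were Acta1 at -1.13 (limma adjusted p = 0.0477), whose call ended when any of 8 libraries was left out, and parvalbumin (Pvalb) at 2.84 (1.42e-07). Acta1, Actn3 and Casq1 of that list were also counted in the thin filament, muscle energy and calcium handling lists. The skeletal muscle counts are therefore not separate from those of the cardiac lists. Smooth muscle had 5 of 11 lower and 4 higher, from Myh11 at -1.51 (3.99e-05) to Tagln at 1.30 (4.83e-05), and summed to 1325 to 1895 RPM in Sham and 1395 to 2194 in Sham-OVA. The summed smooth muscle level thus overlapped between Sham and Sham-OVA. So did the summed level of the members, at 107 to 284 RPM in Sham and 59.0 to 470 RPM in Sham-OVA.

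White adipose genes had 2 of 5 lower and 1 higher, from Plin1 at -1.82 (limma adjusted p = 0.00153) to Fabp4 at 0.95 (0.00365), and brown adipose 0 of 2 either way, Cidea and Cox8b at -0.16 (0.641) and -0.02 (0.952). Mesothelium had 1 of 5 lower and 1 higher, Lrrn4 at -1.51 (0.00362) and Msln at 0.95 (0.0196). Venous endothelium had 1 of 6 lower and 1 higher, Slc6a2 at -0.96 (0.0379), whose call ended when any of 7 libraries was left out, and Ackr1 at 1.03 (0.00578), with sums of 359 to 579 RPM in Sham and 263 to 604 in Sham-OVA. Thymus had 1 of 2 either way, Themis at -0.88 (0.00631) and Cd1d1 at 0.75 (0.00167), and its Ptcra was at 0 in all libraries. Of the lung lineage genes 0 of 7 fell and 2 rose, from Scgb1a1 at -0.96 (0.0628) to Sftpc at 1.19 (0.00147). All 8 type 2 response genes rose, from Il4 at 0.99 (0.0106) to the goblet cell gene Clca1 at 9.86 (8.33e-09). With the length trend removed, 5 type 2 genes were higher and 0 lower, and 1 lung lineage gene was lower and 0 higher. Skeletal muscle then had 2 lower and 2 higher, smooth muscle 5 and 3, white adipose 3 and 1, and brown adipose 2 and 0. Mesothelium had 1 and 0, venous endothelium 0 and 2, and thymus 0 and 0. In PM-OVA against PM, 4 of the 5 white adipose genes were lower and 0 higher, with a median of -1.47, and 0 of 8 skeletal muscle genes were lower and 3 higher. Smooth muscle had 4 of 11 lower and 3 higher there, brown adipose 0 of 2 and 1, mesothelium 1 of 5 and 1, venous endothelium 1 of 6 and 0, thymus 1 of 2 and 0, lung lineages 0 of 7 and 2, and type 2 response 0 of 8 and 8. With the length trend removed, white adipose had 4 lower and 0 higher there, skeletal muscle 3 and 3, smooth muscle 5 and 1, and brown adipose 1 and 0. Mesothelium had 1 and 1, venous endothelium 0 and 0, thymus 1 and 0, lung lineages 0 and 1, and type 2 response 0 and 5. The part of these tissues in the levels of the members was not tested.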

How the data were processed

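RNA-Seq of 23 lung libraries (7 Sham, 7 PM, 5 Sham-OVA, 4 PM-OVA) was used, grouped by the labels. The labels give polyA RNA and a stranded mRNA kit. According to the methods of the paper, libraries were read as 100-base single-end reads, trimmed with Trimmomatic, aligned to GRCm38 with Bowtie2, which does not split reads over introns, and quantified in SeqMonk. The strand setting is not given in the sources used here. The labels give the tissue as Lung (RML) and the methods as the right lower lobe. The authors deposited RPM values, in a table whose name says RPKM. All values were whole multiples of 1 read within a tolerance of 0.02 reads, so reads were recovered.

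Values were taken as log2(RPM + 0.5). Genes that reached 0.5 RPM in 4 or more libraries (16795) were fitted in limma 3.58.1 (R 4.3.3) with a variance trend, in fits of the groups compared, and in 1 fit of 4 groups for the interaction, with Benjamini-Hochberg adjustment. Calls had an adjusted p under 0.05. On this scale the pseudocount shrinks fold changes where values are low. All members and the highest and lowest genes of each list were named. Members and lists were chosen with earlier results of these data known. edgeR 4.0.16 and DESeq2 1.42.0 on recovered reads, other pseudocounts, filters and scalings, library weights, replicate blocks and libraries left out were tried. The scripts were tested on simulated data. Correlations used permutation within groups, with 100000 draws. Promoters came from RefSeq on GRCm38.p6 (9 of the 10 members matched) and gene models from GENCODE on GRCm38. Intervals and floors, set at 3 reads, cover counting error alone. DNA methylation was not analysed here.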

Additional observations from a re-analysis of the deposited data

Results flagged for a closer look

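Within the groups, 8 gene values, in 5 libraries, stood far from the others of their group, out of 40 groups of values examined (10 genes in 4 groups), judged by the gap to the nearest library as a share of the group's range on the log2(RPM + 0.5) scale. Chance flags about 1 in 20 groups.

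In Sham-OVA replicate 3, the shallowest library, 4 genes were high: Myl4 at 65.9 RPM, Tnni3 at 107 RPM, Actn2 at 27.7 RPM and Nppa at 2.49 RPM, which is 8 reads. In Sham replicate 3, Myh6 was low at 2.43 RPM. In PM replicate 5, Myl7 was low at 3.52 RPM. In PM-OVA replicate 1, Ryr2 was high at 5.04 RPM. Of the OVA libraries it also had the most Myh6, the weakest trend with transcript length and the lowest summed type 2 response (9984 RPM). In Sham replicate 4, Nppa was high at 2.28 RPM.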

How the results depend on the processing

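Each result was recomputed under other pseudocounts (0.1 and 1), filters, scalings, tools and libraries left out, and the trend with transcript length and the 3 shallowest libraries were removed as alternatives chosen after seeing the data. Myh6, Ryr2 and Actc1 stayed lower at an adjusted p under 0.05 in all 27 alternatives run for Sham-OVA and all 26 for PM-OVA, with Myh6 between -7.50 and -4.52 on the log2 scale in Sham-OVA and between -5.69 and -3.79 in PM-OVA. The count of members called lower in Sham-OVA was 3, without Sln, under quantile normalisation, median-of-ratios scaling, a replicate block, DESeq2 and edgeR. It moved from 4 to 9 with library weights, without Sham-OVA replicate 3 and without the 3 shallowest libraries. It moved to 0 at the threshold of the study in limma, as it did in PM-OVA. At that threshold in DESeq2, an alternative added after seeing the data, it was 1 for the saline dams and 2 for the PM2.5 dams, with 16 and 12 related cardiac genes lower and 1 and 1 higher. Leaving out 1 library each, it ran from 4 to 9 in Sham-OVA and from 3 to 5 in PM-OVA, and 0 members were called higher in either. edgeR called 1 member higher in each OVA comparison and DESeq2 2 in PM-OVA, and library weights called 4 in the interaction. Related cardiac genes called higher moved from 7 to 4 with a replicate block, 11 with edgeR and 1 at the study threshold in Sham-OVA (5 to 7 leaving out 1 library), and from 5 to 8 with quantile normalisation, 2 with a replicate block, 10 with DESeq2, 10 with edgeR, 1 without the 3 shallowest libraries and 0 at the study threshold in PM-OVA (2 to 7 leaving out 1 library). Those called lower went from 51 to 2 and from 46 to 0 at that threshold in limma.

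The median log2 fold change of all genes in limma was -0.48 for the saline dams and -0.43 for the PM2.5 dams, -0.13 and -0.06 in DESeq2, and -0.05 and -0.06 in edgeR.

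Directions turned for members that did not pass the test. In Sham-OVA, DESeq2 and edgeR gave Myl7 1.85 and 1.67, Myl4 0.25 and 0.18, Tnnt2 1.08 and 0.98, and Actn2 0.64 and 0.38. Tnni3 was -0.59 with library weights, -0.69 with the length trend removed and -0.67 without the 3 shallowest libraries. Nppa was 9.0e-05 with a pseudocount of 1, 0.46 with quantile normalisation, 0.17 with median-of-ratios scaling, 0.048 at 1 depth for all libraries and 1.07 with DESeq2. Leaving out 1 library each, Myl7 ran from -1.25 to 0.14, Tnni3 from -0.67 to 0.37 and Nppa from -0.52 to 0.27. In PM-OVA, Myl7 was -0.30 with the length trend removed and -0.45 without the 3 shallowest libraries, Tnni3 -0.062 with the length trend removed, and Tnnt2 -0.073 without the 3 shallowest libraries. Myl4 was 0.032 with quantile normalisation, 0.034 with median-of-ratios scaling, 0.11 with DESeq2 and 0.073 with edgeR. Actn2 was -0.10 with a replicate block, -0.39 without the 3 shallowest libraries, and from -0.10 to 0.36 leaving out 1 library each. The cause was not tested beyond the libraries named. Among the members and maternal contrasts given as counts, direction turned in 33 of 252 values in PM against Sham, 24 of 216 in PM-OVA against Sham-OVA and 20 of 342 in the interaction.

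Replicate numbers were those of the sample titles, most of which differ in the OVA groups from the numbers in the library names. Same-numbered libraries correlated at -0.0665 to 0.115 in Sham-OVA against Sham and -0.101 to 0.0625 in PM-OVA against PM. In these comparisons 2 of 5 and 1 of 4 correlated best with their own number. Pairing by the numbers in the library names was not tested. In PM against Sham the range was -0.248 to 0.104 (0 of 7) and in PM-OVA against Sham-OVA -0.311 to 0.617 (2 of 4). With the replicate block 3 members were lower in Sham-OVA (Sln at -1.35, adjusted p = 0.0568 in limma) and 4 in PM-OVA. Low genes are the least precise in Sham-OVA replicate 3, where 1 read was worth 0.311 RPM.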
